A study of Mus musculus with 8 samples.

Results

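Egr1, Egr2, Egr3, Nr4a1, Nr4a2, Nr4a3, Klf2, Klf4 and Klf6 are 9 genes for early transcription factors, chosen by symbol from a deposited table of 52325 mouse genes. Each symbol matched 1 row and 1 gene identifier. RNA was sequenced from costal chondrocytes, the cells of rib cartilage, freed from rib cages with collagenase. The mice were 4 wild-type controls (WT) and 4 animals without the microRNA gene Mir324 (Mir324-null, or null), with 1 library per mouse and no treatment. The sources used here do not give strain, age, sex or how the null allele was made. The values are TPM, transcript abundance per length scaled to a total of 1000000 in each library, so levels of different genes can be compared on that scale. TPM keeps no record of sequencing depth, and the counting error of a single value is unknown.

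Early response genes are transcribed within minutes of a stimulus, without new protein synthesis, and their RNAs and proteins are short-lived. EGR proteins are zinc finger factors switched on mainly through serum response factor (SRF) and its ternary complex partners at CArG boxes. NR4A proteins are orphan nuclear receptors that act without a known ligand and are induced through cyclic AMP, CREB and MEF2. KLF proteins are zinc finger factors that bind GC-rich DNA, and Klf2 and Klf4 are known targets of the kinase ERK5 and MEF2. Many genes of this kind are known to rise when a tissue is taken apart with enzymes.

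Of the 9 factors 6 were abundant in these cells and 3 were at lower levels, and none was called different between the genotypes. All 9 had negative log2 fold changes in the null group, as 60.1% of 13910 tested genes did. None of the 9 reached an adjusted p under 0.05 in limma, and 0.0216% of all tested genes did (3 genes; 0.0144% lower in null). At an unadjusted p under 0.05 the count was 1 of 9, and 4.15% of all tested genes. The groups overlapped for all 9, and did not for 2.68% of tested genes. The widest differences were those of Klf6, Klf2 and Egr3. WT replicate 4 held the highest value of 6 factors and null replicate 3 the lowest value of 7.

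Mir324, the deleted gene, was listed at 0 TPM in all 8 libraries and so gave no check of the genotype labels. Its mature products are printed here because the factors' transcripts were searched for their target sites. The sequences are RefSeq's (GRCm38.p6, chromosome 11, plus strand), with seed bases 2 to 8 in capitals.
miR-324-5p (chr11:70012060-70012082): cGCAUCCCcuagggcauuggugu
miR-324-3p (chr11:70012095-70012114): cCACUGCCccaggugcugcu

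A match to a seed was found in the longest annotated 3′ UTR of 2 of the 9 genes. Klf6 held 1 match to the miR-324-5p seed, the letters GGGATGC, which 7.39% of 21022 genes hold at least once. Egr2 held 1 match to the miR-324-3p seed, GGCAGTG, which 12.7% hold. The sites are printed from GRCm38 (plus strand) with the match in capitals.
Klf6 site (chr13:5867342-5867364), starting at base 67 of a 3′ UTR of 3111 bases: tggaaggaGGGATGCctgtaaca
Egr2 site (chr10:67541834-67541856), starting at base 854 of a 3′ UTR of 1200 bases: gtgatgtgGGCAGTGttaacagg
Egr1, Egr3, Nr4a1, Nr4a2, Nr4a3, Klf2 and Klf4 held neither letter string. Both genes with a match had negative fold changes, with 95% intervals that include 0.

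Promoters are shown for factors whose windows held several TGACG cores or a box of a known inducer. RefSeq windows (GRCm38.p6) from 250 bases before to 50 bases after a start site were used for 7 of the 9 genes. No window of Egr1 or Egr3 was searched, so their motifs are unknown here. Of the 5 windows listed for Egr2, the 1 at most annotated starts was used. Capitals mark TGACG on either strand, which is the core of the CREB site, and the CArG and MEF2 boxes.
Egr2 (chr10:67537620-67537919, plus strand): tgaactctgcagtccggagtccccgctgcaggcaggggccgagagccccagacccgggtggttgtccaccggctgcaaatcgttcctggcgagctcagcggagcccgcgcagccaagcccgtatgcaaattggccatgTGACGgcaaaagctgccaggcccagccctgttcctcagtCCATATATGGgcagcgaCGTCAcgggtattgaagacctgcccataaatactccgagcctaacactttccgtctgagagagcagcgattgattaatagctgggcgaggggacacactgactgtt
Nr4a1 (chr15:101266596-101266895, plus strand): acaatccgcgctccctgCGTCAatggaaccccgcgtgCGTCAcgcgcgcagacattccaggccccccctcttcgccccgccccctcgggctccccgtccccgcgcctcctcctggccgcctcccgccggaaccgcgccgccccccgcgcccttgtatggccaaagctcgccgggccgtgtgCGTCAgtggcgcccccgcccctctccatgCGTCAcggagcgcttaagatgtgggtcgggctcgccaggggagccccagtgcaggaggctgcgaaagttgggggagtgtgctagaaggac
Nr4a2 (chr2:57123954-57124253, minus strand): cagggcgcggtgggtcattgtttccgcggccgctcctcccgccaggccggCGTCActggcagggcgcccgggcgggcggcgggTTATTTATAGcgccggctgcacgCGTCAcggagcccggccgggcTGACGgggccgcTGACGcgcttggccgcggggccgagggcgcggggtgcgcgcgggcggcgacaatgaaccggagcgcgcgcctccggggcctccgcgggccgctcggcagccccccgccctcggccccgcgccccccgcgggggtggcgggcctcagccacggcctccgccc
Nr4a3 (chr4:48045055-48045354, plus strand): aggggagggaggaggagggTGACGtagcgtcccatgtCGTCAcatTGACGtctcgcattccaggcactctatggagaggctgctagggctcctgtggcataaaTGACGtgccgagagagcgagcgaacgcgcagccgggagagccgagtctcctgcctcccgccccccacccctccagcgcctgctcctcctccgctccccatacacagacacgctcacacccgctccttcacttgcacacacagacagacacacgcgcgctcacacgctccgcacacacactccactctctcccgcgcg
Klf2 (chr8:72318812-72319111, plus strand): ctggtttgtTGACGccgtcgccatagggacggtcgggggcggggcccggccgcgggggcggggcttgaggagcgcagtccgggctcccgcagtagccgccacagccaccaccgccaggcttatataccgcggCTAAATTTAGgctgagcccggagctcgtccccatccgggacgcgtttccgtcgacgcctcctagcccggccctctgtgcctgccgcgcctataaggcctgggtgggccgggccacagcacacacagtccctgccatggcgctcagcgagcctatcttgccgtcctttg

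The 3 NR4A windows each held 4 TGACG cores, a number reached by 0.231% of 32851 RefSeq windows of this length (76 windows). In Nr4a1 they began at -233, -213, -69 and -40 bases from the start site, in Nr4a2 at -200, -144, -123 and -111, and in Nr4a3 at -231, -213, -205 and -147. Distances are from RefSeq's start site, which for Nr4a3, Klf2, Klf4 and Klf6 is not an annotated GENCODE start. In GENCODE the Nr4a3 gene begins at 48045153, inside its window and upstream of the start site used. Egr2 held 2 cores, at -112 and -56, which 5.01% of windows match or exceed. Klf2 and Klf4 held 1 each, as at least 1 is found in 20.8% of windows, and Klf6 held none. The full palindrome TGACGTCA, which contains the core, was in none of the 7 windows and is in 1.79% of all.

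Of the 7 windows searched, which hold none for Egr1 or Egr3, that of Egr2 had a CArG box, at -73, and 1.63% of all windows have a box. MEF2 boxes stood at -167 in Nr4a2 and -118 in Klf2, and 3.19% of all windows hold at least 1. The EGR site GCGNGGGCG occurred 1 time each in Nr4a1, Nr4a2 and Klf2 and 2 times in Klf4, and is in 5.55% of all windows. The GC box GGGCGG, which can overlap the EGR site, was in 6 of the 7 windows, all but Egr2, and in 35.7% of all. The NR4A monomer site AAAGGTCA was in none of the 7 and is in 1.51% of all. All motifs were sought on both strands, and a match is a description of the letters.

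On the TPM scale Egr1 had the highest mean over the 8 libraries, 1605 TPM, followed by Nr4a2 (746), Nr4a1 (571), Klf2 (420), Klf6 (333), Klf4 (288), Egr2 (40.4), Egr3 (40.0) and Nr4a3 (30.9). Among protein-coding genes Egr1 ranked between 46 and 80 in every library, so it was among the most abundant messages of these cells. Nr4a3 ranked between 2260 and 2727. Together the 9 held 0.409%, 0.380%, 0.453% and 0.533% of all TPM in WT replicates 1 to 4 and 0.465%, 0.349%, 0.257% and 0.414% in null replicates 1 to 4.

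Some neighbours in this order did not differ beyond their spread. Nr4a2 exceeded Nr4a1 in 7 of 8 libraries, with a mean log2 ratio of 0.33 ± 0.46 (SD, n = 8). Klf6 exceeded Klf4 in 6 (0.11 ± 0.49), Egr2 exceeded Egr3 in 5 (0.07 ± 0.48) and Egr3 exceeded Nr4a3 in 7 (0.29 ± 0.46). Klf2 exceeded Klf6 in 8 of 8, although by less than 1 SD (0.36 ± 0.39). The gap from Klf4 down to Egr2 was 2.85 ± 0.25 on the log2 scale, which separates 6 abundant factors from 3 at lower levels. No test is given, since the same values set the order.

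**Figure D1:**
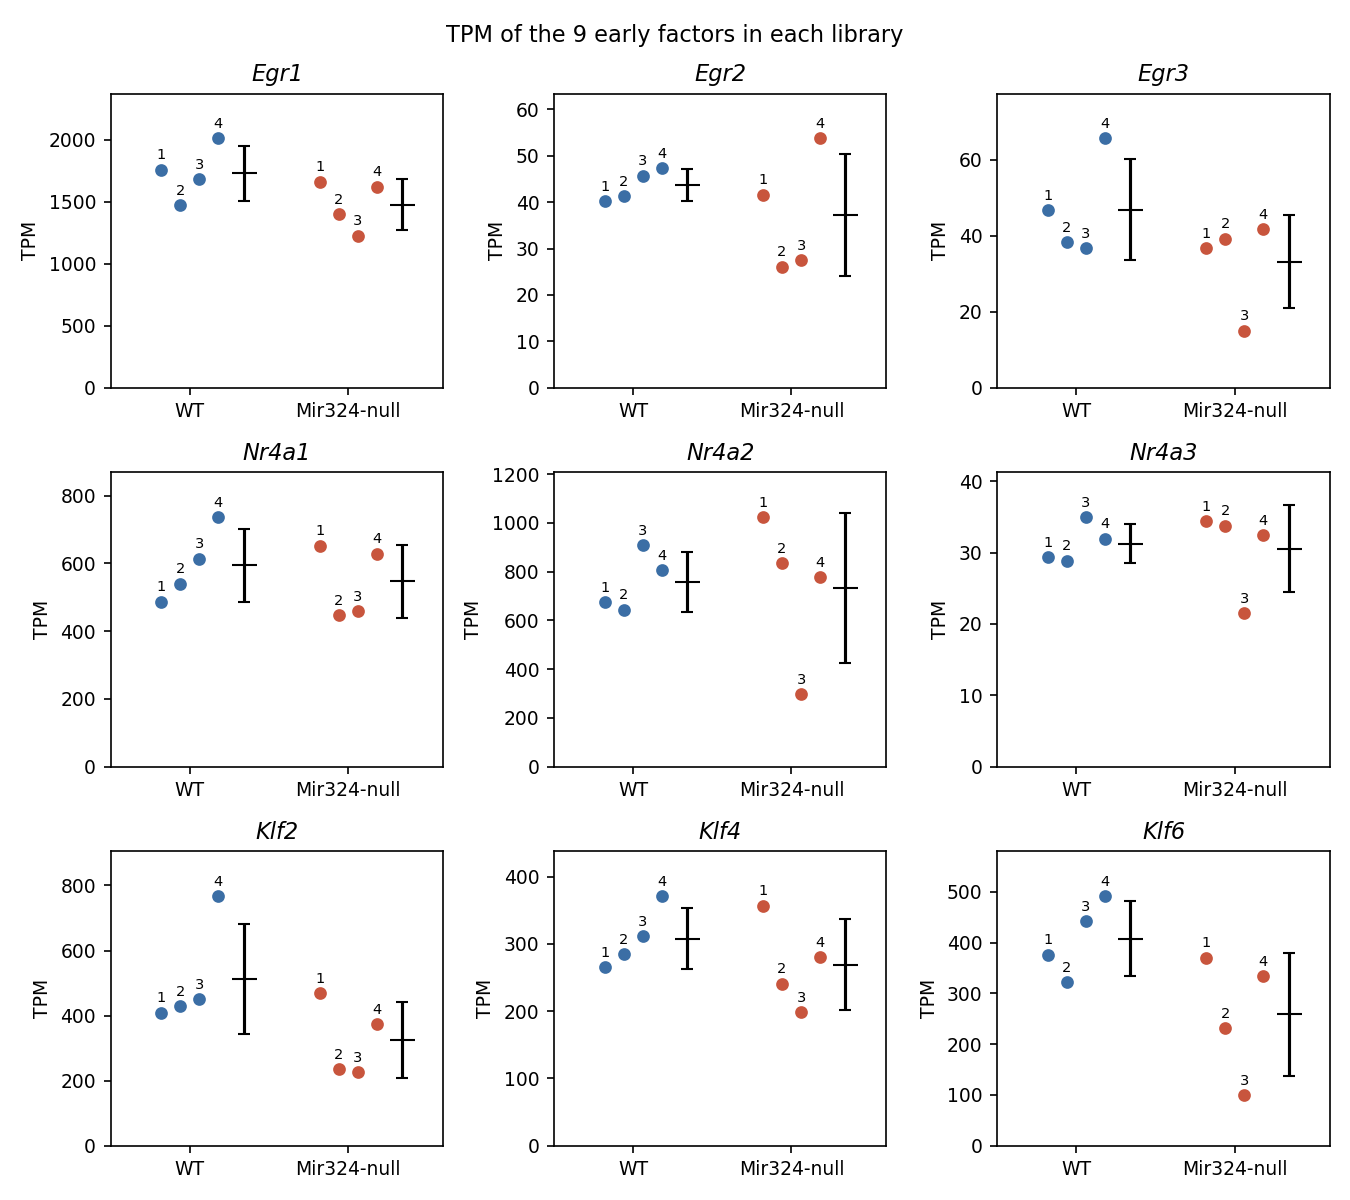
TPM (linear axis from 0) of each of the 9 factors in the 4 WT (blue) and 4 Mir324-null (red) libraries, numbered by replicate, with the mean and SD of each group as bars. The groups overlap for every factor, and null replicate 3 is the lowest point for 7 of the 9.

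Among the EGR genes, Egr1 encodes the most widely induced member of the family and lies at chr18:34859823-34864984 (GRCm38, GENCODE M21, plus strand). Its level was 1758, 1474, 1683 and 2013 TPM in the 4 WT libraries, in replicate order as throughout, and 1663, 1401, 1226 and 1622 TPM in the 4 null libraries. Null replicates 2 and 3 lay below every WT library, WT replicates 1, 3 and 4 lay above every null library, and the other 3 libraries lay between. The means were 1732 ± 222 TPM in WT and 1478 ± 204 TPM in null (SD, n = 4 each). The log2 fold change was -0.23 (95% interval -0.55 to 0.09, limma adjusted p = 0.981), and the exact two-sided permutation p was 0.143. The fold change was -0.14 without null replicate 3.

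Egr2 (chr10:67535475-67542188, plus strand), best known for its part in myelination and in lymphocytes, was at 40.2, 41.3, 45.7 and 47.3 TPM in WT and 41.6, 26.1, 27.5 and 53.8 TPM in null. The null libraries enclosed the WT range, with 2 below it and 1 above it. The SD was 3.42 TPM around 43.6 in WT and 13.1 TPM around 37.2 in null. Its log2 fold change was -0.28 (95% interval -0.81 to 0.25, limma adjusted p = 0.981; exact permutation p = 0.371). It was -0.14 without null replicate 2, -0.16 without null replicate 3, -0.48 without null replicate 4 and -0.02 with array quality weights.

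Egr3 (chr14:70077203-70082614, plus strand), a related factor of muscle spindles and lymphocytes, was at 46.7, 38.3, 36.8 and 65.7 TPM in WT and 36.8, 39.3, 15.0 and 41.7 TPM in null. The highest library, WT replicate 4, and the lowest, null replicate 3, differed 4.37-fold, while the other 6 lay between 36.8 and 46.7 TPM. The means were 46.9 ± 13.3 and 33.2 ± 12.3 TPM (SD, n = 4 each). Its log2 fold change was -0.54 (95% interval -1.32 to 0.23, limma adjusted p = 0.981; exact permutation p = 0.257), -0.21 without null replicate 3 and -0.37 without WT replicate 4.

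Egr1 made up 95.04% ± 0.31 of the summed TPM of Egr1, Egr2 and Egr3 in WT and 95.5% ± 0.90 in null (SD, n = 4 each). Egr4, the remaining family gene, lies outside the 9. Egr4 was at 34.8, 20.2, 19.2 and 32.4 TPM in WT and 14.05, 9.15, 10.7 and 11.9 TPM in null, so every null library lay below every WT library. Its log2 fold change was -1.12 (95% interval -1.65 to -0.59), with a limma p of 0.00118 that became 0.981 after adjustment over all genes. The exact permutation p of 0.0286 is the smallest that 4 against 4 libraries allow. Groups that do not overlap, with null lower, were found for 1.70% of tested genes. Egr3 shares 8 of its 31-base words with Egr4 and 14 with Egr2 among annotated transcripts, 0.523% of its words in all.

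The NR4A genes showed the smallest differences of the 3 families. Nr4a1 (chr15:101254269-101274795, plus strand), also called Nur77, was at 487, 540, 614 and 736 TPM in WT and 652, 447, 459 and 629 TPM in null. Null replicates 1 and 4 were inside the WT range and null replicates 2 and 3 just below it. The means were 594 ± 108 and 547 ± 109 TPM (SD, n = 4 each), giving a log2 difference of -0.12 (95% interval -0.54 to 0.29, limma adjusted p = 0.981; exact permutation p = 0.543). With 1 library left out it ran from -0.21 without WT replicate 1 or null replicate 1 to -0.0146 without WT replicate 4, and was -0.0338 and -0.0466 without null replicates 2 and 3 and -0.20 without null replicate 4.

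Nr4a2 (chr2:57106830-57124003, minus strand), also called Nurr1 and needed for dopamine neurons, was at 675, 643, 908 and 805 TPM in WT and 1023, 836, 297 and 778 TPM in null. The null group held both the highest and the lowest of the 8 values. Its means were 758 ± 122 and 733 ± 309 TPM (SD, n = 4 each), with a log2 fold change of -0.17 (95% interval -0.99 to 0.65, limma adjusted p = 0.983). The fold change was 0.22 without null replicate 3, -0.08 without WT replicate 3, and -0.38 and -0.28 without null replicates 1 and 2.

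Nr4a3 (chr4:48045153-48086447, plus strand), also called Nor1, was the lowest of the 9 factors, at 29.4, 28.8, 34.9 and 31.9 TPM in WT and 34.4, 33.8, 21.5 and 32.5 TPM in null. All libraries but null replicate 3 lay within 28.8 to 34.9 TPM. The log2 fold change was -0.05 (95% interval -0.44 to 0.34, limma adjusted p = 0.988), and 0.10 without null replicate 3.

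Nr4a1 and Nr4a2 shared most of the summed TPM of the 3 NR4A genes, at 42.9% ± 3.36 and 54.8% ± 3.26 in WT and 43.7% ± 10.96 and 53.9% ± 11.15 in null (SD, n = 4 each). The wider spread in null was that of null replicate 3, where Nr4a1 held 59.0% and Nr4a2 38.2%, and where the order of the pair was inverted. Across the other 7 libraries Nr4a2 held 51.2% to 63.5%.

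Klf2 and Klf6 had the widest differences of the 9, and Klf4 a smaller one. Klf2 (chr8:72319033-72321656, plus strand) encodes a factor known for the response of endothelium to flow and for lymphocyte quiescence. It was at 409, 429, 450 and 766 TPM in WT and 468, 236, 226 and 374 TPM in null. WT replicate 4 stood well above the other 7, and 3 of 4 null libraries lay below every WT library, with null replicate 1 inside the WT range. The means were 513 ± 169 and 326 ± 117 TPM (SD, n = 4 each).

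Its log2 fold change was -0.67 (95% interval -1.34 to -0.0008), with an unadjusted limma p of 0.0498, an adjusted p of 0.981 and an exact permutation p of 0.114. Klf2 was the 1 factor of 9 with an unadjusted p under 0.05, a rate reached by 4.15% of all tested genes. The fold change was -0.46 without WT replicate 4 and -0.52 without null replicate 3. The summed TPM of 12 endothelial markers ranged from 14.9 to 62.2 in WT and from 46.9 to 70.8 in null, and none of the 12 was listed at 0 in all libraries. All 10 tested endothelial markers had positive fold changes, opposite to Klf2, and their part in its level was not tested. In bulk RNA, fewer cells of a type and less RNA per cell cannot be told apart.

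Klf4 (chr4:55527143-55532466, minus strand), one of the factors used to reprogram cells to pluripotency, was at 265, 284, 311 and 371 TPM in WT and 357, 241, 198 and 280 TPM in null. The libraries interleaved, with null replicate 1 second only to WT replicate 4. The means were 308 ± 45.9 and 269 ± 67.5 TPM (SD, n = 4 each), giving a log2 difference of -0.22 (95% interval -0.66 to 0.23, limma adjusted p = 0.981; exact permutation p = 0.343). It was -0.08 without null replicate 3, -0.12 without WT replicate 4 and -0.36 without null replicate 1. Of its 3047 31-base words, 61 occur in transcripts of other genes, the highest share among the 9, and 58 of them lie in the gene model Gm48640.

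Klf6 (chr13:5861482-5870394, plus strand), a broadly expressed family member, was at 376, 322, 443 and 491 TPM in WT and 370, 231, 99.7 and 334 TPM in null. It had the widest range of the 9, 4.93-fold from null replicate 3 to WT replicate 4. Null replicates 1 and 4 lay within the WT range. The means were 408 ± 74.1 and 259 ± 121 TPM (SD, n = 4 each), with a log2 fold change of -0.80 (95% interval -1.69 to 0.09, unadjusted limma p = 0.0728, adjusted p = 0.981; exact permutation p = 0.114). It was -0.40 without null replicate 3.

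**Figure D2:**
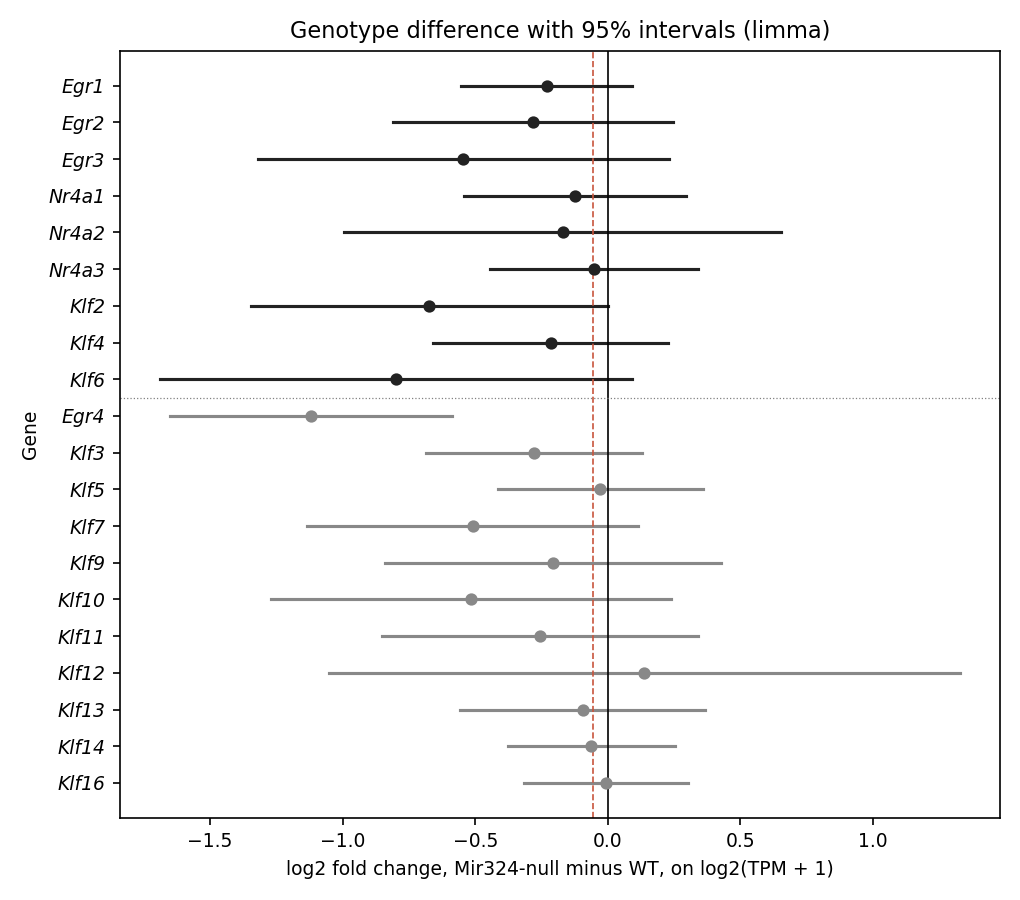
Log2 fold change (null minus WT, on log2(TPM + 1)) with limma's 95% interval for the 9 factors (black) and the 11 other tested EGR and KLF genes (grey), with the median of all tested genes (-0.05) as a dashed line. All 9 factors lie left of 0, the interval of Klf2 ends just below it, and Egr4 is lowest at -1.12.

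Over the 9 factors the median log2 fold change was -0.23, where the median of all tested genes was -0.05. Without null replicate 3 the members' median was -0.14 with 7 of 9 negative, and the median of all genes was 0.02. With array quality weights, which gave that library 0.188 of an average weight, the members' median was -0.02 with 5 of 9 negative.

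The balance within a family was compared between genotypes with 9 log2 ratios, chosen after the values were seen. The ratio of Klf4 to Klf2 was -0.62, -0.59, -0.53 and -1.05 on the log2 scale in WT and -0.39, 0.03, -0.19 and -0.42 in null. Every null library was above every WT library, so Klf4 was closer to Klf2 in null. The means were -0.70 ± 0.24 and -0.24 ± 0.21 (SD, n = 4 each), a difference of 0.46 with an exact permutation p of 0.0286, the smallest possible, and an adjusted p of 0.257 over the 9 ratios. The p was 0.0857 without WT replicate 4, where the difference was 0.34, and 0.0571 without null replicate 2 (0.37). In both cases every remaining null library was still above every remaining WT library.

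The ratio of Klf6 to Klf4 had means of 0.40 ± 0.15 in WT and -0.19 ± 0.55 in null (SD, n = 4 each; exact permutation p = 0.0571, adjusted p = 0.257). It was -0.99 in null replicate 3. The other 7 ratios had adjusted p-values from 0.932 to 0.943.

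The levels of the factors moved together over the 8 libraries, and how often other gene pairs do so was not measured. All 36 pairs of factors had positive Pearson correlations of log2(TPM + 1) over the 8 libraries, with a median r of 0.768 and a range of 0.465 to 0.987. Of the 36, 13 had an adjusted exact permutation p under 0.05 by r and 4 by Spearman's rho. The median r was 0.749 for deviations from the genotype means, all 36 again positive. Most of this rested on a few libraries. Without the 2 libraries farthest from the median of a pair's first gene, the median r was 0.239 and 27 pairs were positive. None passed, though fewer libraries also raise the smallest possible p. Null replicate 3 was low for tested genes in general, with a median deviation of -0.25. Without null replicate 3 alone, 30 pairs were positive, the median r was 0.53 and 3 passed.

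The pair with the highest Pearson r was Nr4a2 and Nr4a3, although Nr4a3 stood at only 0.0337 to 0.0723 of the TPM of Nr4a2. Their r was 0.987 (exact permutation p = 0.000248, adjusted p = 0.00446; n = 8) and their rho 0.952 (exact permutation adjusted p = 0.0137). It was 0.984 without the 2 farthest libraries and 0.936 without null replicate 3. Nr4a1, the third family member, followed Nr4a2 less closely, with an r of 0.559 (exact permutation adjusted p = 0.151). The 2 libraries farthest for Nr4a1 were WT replicate 4 and null replicate 2, and without them the r was 0.855. Without null replicate 3 it was 0.412. The difference between the correlations of these pairs was not tested. Nr4a1 was closer to Klf4, with an r of 0.894 (exact permutation adjusted p = 0.0176), a rho of 0.905 (adjusted p = 0.0411) and 0.912 without null replicate 3.

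Klf2 and Klf4 had an r of 0.912 (exact permutation p = 0.00355, adjusted p = 0.0182; n = 8) and a rho of 0.976 (adjusted p = 0.00714). Their r was 0.796 without the 2 farthest libraries. Egr1 and Klf6 had an r of 0.909 (exact permutation p = 0.000248, adjusted p = 0.00446; n = 8), a rho of 0.976 (adjusted p = 0.00714) and an r of 0.861 without the 2 farthest libraries. These are pairs from different families as well as within them. For Egr3 and Nr4a2 the relation rested on single libraries: the r of 0.770 went with a rho of 0.00 and became -0.23 without null replicate 3.

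**Figure D3:**
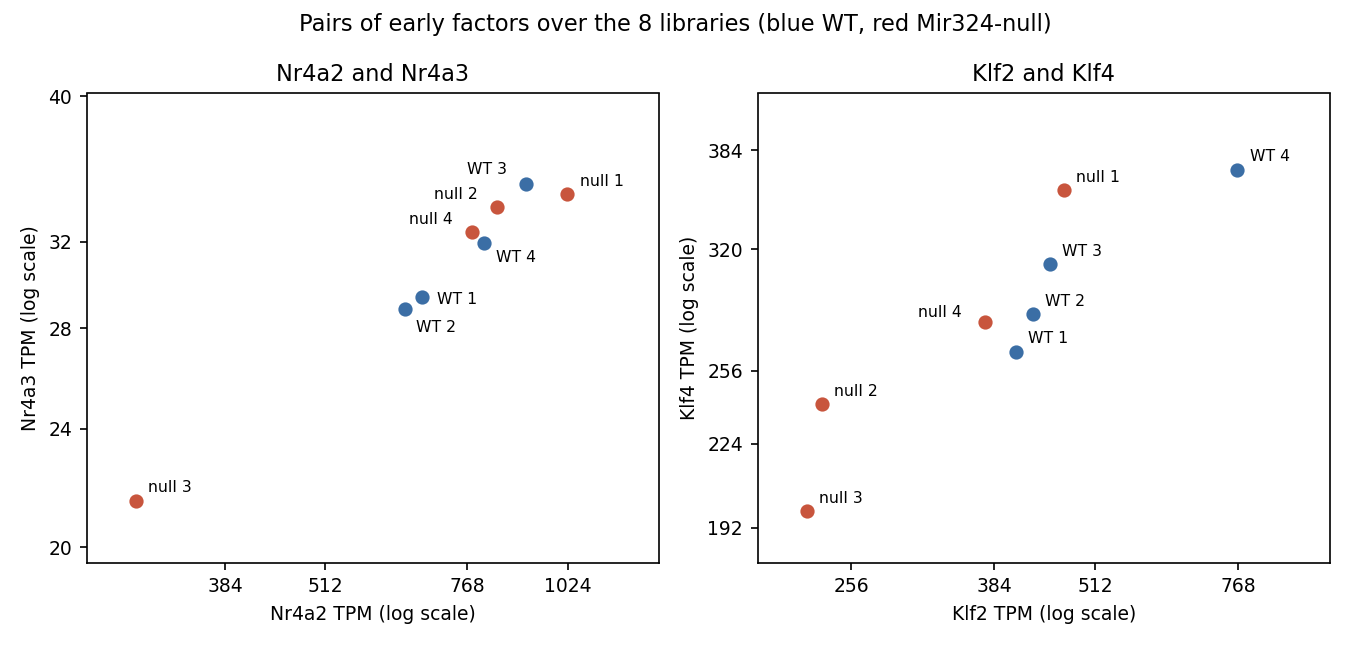
TPM of Nr4a3 against Nr4a2 (left) and of Klf4 against Klf2 (right) in the 8 libraries, on log axes, with WT in blue and null in red. The points of Nr4a2 and Nr4a3 follow 1 line (r 0.987). In the right panel null replicates 1 and 4 lie left of WT replicates 4 and 2, the WT libraries nearest to them in Klf4 level. Null replicates 2 and 3 lie below every WT library in Klf4.

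By library, WT replicate 4 had the highest median deviation of the 9 factors from their own medians, 0.35 on the log2 scale, against -0.04 for all tested genes. Klf2 and Egr3 deviated most there, by 0.87 and 0.75. Null replicate 2 had a median deviation of -0.23, with Klf2 at -0.83, Egr2 at -0.65 and Klf6 at -0.60, while Nr4a2 and Nr4a3 were at 0.08 and 0.07. Null replicate 3 had -0.58 and was among the 2 lowest libraries for all 9 factors. For all tested genes that library had a median deviation of -0.25.

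**Figure D4:**
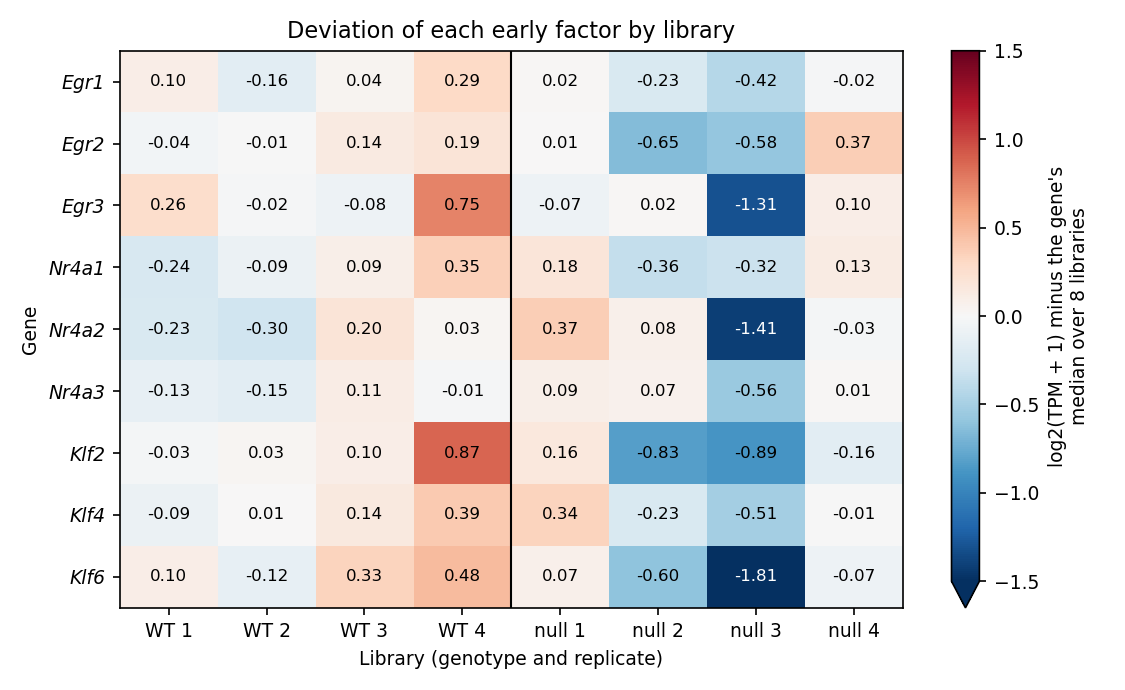
Log2(TPM + 1) of each factor (rows) minus its median over the 8 libraries, for each library (columns; colour and printed value). Null replicate 3 is low for all 9 factors, WT replicate 4 is highest for 6, and null replicate 2 is below 0 for 6 but not for Egr3, Nr4a2 or Nr4a3.

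Null replicate 3 stood apart from the rest of the series. Its mean Spearman correlation with the other libraries was 0.864 (0.895 to 0.914 for the others), it had 13229 genes at 1 TPM or more (13683 to 14477), and pseudogenes held 25.0% of its TPM (17.7% to 19.1%). Genes with long transcripts were lower in it. Relative to the median of the other 7 libraries, the median difference on the log2(TPM + 1) scale went from 0.17 for 572 coding genes with a longest transcript up to 1000 bases to -0.63 for 1673 genes over 6000 bases.

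Set against genes of like length, the factors differed from each other in this library. Egr1 (-0.44 at 4484 bases) and Nr4a3 (-0.57 at 5720 bases) were near the median of genes of 4000 to 6000 bases, -0.47. Klf6 (-1.88 at 4225 bases), Nr4a2 (-1.43 at 3568 bases) and Egr3 (-1.33 at 3940 bases) were far below the medians of their length classes. Of coding tested genes of all lengths, 0.825%, 2.53% and 3.55% were lower still, and the share within each class was not counted. Klf2 was at -0.92 although its longest transcript has 1847 bases, a length class with a median difference of 0.00. Nr4a1 (-0.42) and Egr2 (-0.58) lay below the -0.20 of genes of 2000 to 3000 bases, and Klf4 (-0.52) below the -0.32 of genes of 3000 to 4000 bases.

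**Figure D5:**
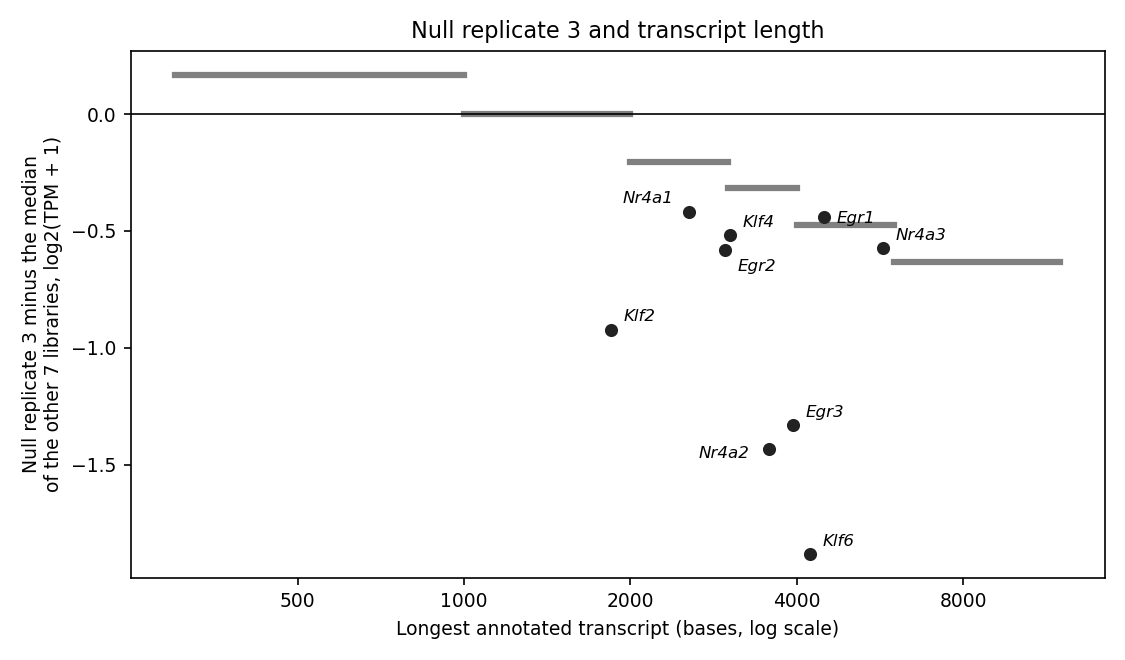
Difference of null replicate 3 from the median of the other 7 libraries, in log2(TPM + 1), against longest annotated transcript in bases (log axis), with the 9 factors as points and the median of coding tested genes in each length class as grey bars. The bars fall from 0.17 to -0.63, and Klf6, Nr4a2, Egr3 and Klf2 lie well below them.

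Other genes of these families and their circuit were counted by list. Beside every count of genes lower in null stands the 60.1% of all tested genes with a negative fold change. Genes of a list share the same 8 libraries, so the counts are descriptions. Of 15 listed relatives, Egr4 and KLF genes only, 11 were tested, 10 were lower and 1 higher, and 0 passed limma's adjusted test. Their median log2 fold change was -0.21. Klf3, with Klf10 the most abundant of these, had -0.28. Klf7 was at 14.1 ± 1.06 TPM in WT and 10.2 ± 3.63 TPM in null (SD, n = 4 each). Its groups did not overlap, as for 1.70% of tested genes with null lower. Its log2 fold change was -0.51 with a 95% interval of -1.13 to 0.11. The list's median was -0.06 without null replicate 3 and -0.36 without null replicate 1.

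AP-1 subunits are induced by many of the same signals. The list named for them also holds other transcription factors, among them Myc, Nfil3, Bhlhe40, Id1, Id2 and Id3, so its counts describe a mixed list. Of 17 tested, 16 were lower in null, as were 60.1% of all tested genes. The adjusted test passed 0 of the 17, and their median log2 fold change was -0.32. That median was -0.18 without WT replicate 4, -0.22 without null replicate 3 and -0.12 with array quality weights. At an unadjusted p under 0.05 there were 4, all lower, against 2.37% of tested genes. Jun was at 1042, 1029, 1059 and 1608 TPM in WT and 1034, 535, 385 and 934 TPM in null, with a log2 fold change of -0.80. Atf3, a stress-induced factor, was at 2526 ± 655 and 1498 ± 646 TPM (SD, n = 4 each), and Fosl1 at 241 ± 26.6 and 185 ± 18.5 TPM. Fosl1 was the 1 gene of this list whose groups did not overlap, as for 1.70% of tested genes with null lower. Fos had a log2 fold change of -0.46. The list's summed TPM was 7305 to 10523 in WT and 4107 to 7831 in null, and null replicates 2 and 3 were its 2 lowest libraries, as they were for 6 of the 9 factors.

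Feedback and RNA decay genes limit the early response, by removing phosphate from MAP kinases or by degrading messages. The list named for them also holds genes that do neither, among them Cyr61, Ctgf, Ptgs2 and Plk2, so its counts describe a mixed list. Of 24 tested, 21 were lower and 3 higher, and 0 passed the adjusted test (median log2 fold change -0.11). Cyr61, a secreted matrix protein gene, was at 322 ± 10.2 TPM in WT and 237 ± 34.6 TPM in null (SD, n = 4 each), with every null library below every WT library and a log2 fold change of -0.46. Dusp4, a MAP kinase phosphatase at low levels here, had -0.57 and did not overlap either. These were 2 of the 24, and 1.70% of all tested genes were lower in null without overlap. Ier3, a survival factor, went the other way at 0.47, from 856 ± 149 to 1191 ± 250 TPM. Zfp36, whose protein binds AU-rich messages for decay, had -0.46.

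Genes of the inducing pathway gave 16 lower and 5 higher of 21 tested, with 0 passing and a median of -0.13, which was 0.06 without null replicate 3. Srf itself had a log2 fold change of -0.22 (18.4 ± 2.04 and 15.6 ± 1.04 TPM; SD, n = 4 each). Elk3, a ternary complex factor that can repress, had 0.51, and Elk4 had 0.21. Mapk7, which encodes ERK5, had -0.33 and Mef2d had -0.16. Of the partners, corepressors and turnover genes, 8 of 12 tested were lower, 0 passed, and the median was -0.05, and above 0 without null replicate 3 (0.0456) or WT replicate 2 (0.0065). Rxra, the dimer partner of Nr4a1 and Nr4a2, had -0.18. Ncoa3, a coactivator, had -0.40, Ctbp1, a corepressor, -0.10, and Wwp1, a ubiquitin ligase for KLF proteins, -0.19.

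Heat shock genes were listed as a sign of stress on dissociation. All 12 were lower in null, their median log2 fold change being -0.74 (-0.60 without null replicate 3), 10 had an unadjusted p under 0.05 (2.37% of all tested genes did and were lower), and 0 passed the adjusted test. The groups did not overlap for 7 of the 12, and for 1.70% of all tested genes with null lower. Dnaja1, a chaperone partner, was at 539 ± 94.0 TPM in WT and 289 ± 82.3 TPM in null (SD, n = 4 each), a log2 difference of -0.94. Hsp90aa1 was at 4442 ± 515 and 2568 ± 764 TPM, and Hspa8, the constitutive chaperone, at 7520 ± 718 and 6140 ± 957 TPM. Hspa1a had -0.84 and Hspa1b -0.75; these near-identical paralogs can share reads. The summed TPM of the list was 20386 to 25939 in WT and 11948 to 19806 in null, and its part in the levels of the 9 factors was not tested.

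The summed TPM of 8 listed cartilage markers was 40958 to 50788 in WT and 39125 to 52157 in null. Most of it was Col2a1 (mean 38597 TPM), while Matn1 had a mean of 20.0 TPM. In null 5 of the 8 were lower and 3 higher, and 0 passed limma's adjusted test. Sox9 was at 153 ± 6.44 TPM in WT and 134 ± 4.65 TPM in null (SD, n = 4 each). Its groups did not overlap, as for 1.70% of tested genes with null lower. Summed fibroblast markers were 954 to 3301 TPM in WT and 1135 to 2362 TPM in null, macrophage markers 15.5 to 22.2 and 14.7 to 25.0, neutrophil markers 1.42 to 3.69 and 3.03 to 6.25, and lymphocyte markers 0.488 to 1.11 and 0.577 to 1.77. Muscle markers summed to 42.1 to 110 TPM in WT and 55.7 to 78.8 TPM in null, with Myh4 listed at 0 in all libraries. Erythroid markers summed to 67.3 to 644 TPM in WT and 150 to 596 TPM in null. Cd68 made up most of the macrophage sum (mean 18.2 TPM) and Tnnt3 most of the muscle sum (mean 62.8 TPM). Xist and Y-linked transcripts divided the libraries, with Y-linked expression in WT replicate 2 and null replicates 3 and 4. With the ratio between them entered as a covariate, the log2 fold changes of all 9 factors stayed below 0 and their median was -0.19.

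The genes most like the factors were found by the correlation of each of 11388 coding tested genes with the mean of the 9 over the 8 libraries. Klf10, a KLF gene induced by TGF-beta, was nearest, with an r of 0.993, and 0.980 without null replicate 3. It was at 224, 206, 228 and 313 TPM in WT and 251, 163, 84.5 and 227 TPM in null. The next were Gigyf1, a factor in translational repression (0.991), Rsbn1l (0.990), Foxo4, a forkhead factor (0.981), Sesn3, a stress-responsive sestrin (0.979), and Vamp2, a vesicle fusion protein (0.976). Lrrc8a, an anion channel subunit (0.976), Lix1l (0.976), Pfkfb3, a regulator of glycolysis (0.974), and R3hdm4 (0.973) completed the 10. All 10 had their lowest value in null replicate 3, as the mean of the 9 did, and these correlations are a description of 8 shared libraries.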

How the data were processed

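Gene-level values of 8 mouse rib chondrocyte libraries, 1 per mouse, were used, 4 WT and 4 Mir324-null. The deposited values are TPM, which the authors call length-scaled, with no pooling; with repeated identifiers counted once each column summed to 1000000. The table has 52865 rows and 52325 identifiers. Because its repeats add most to its total, null replicate 3 was recorded with another unit name, but it was used as TPM like the rest. Kallisto and DESeq2 are named without versions, per the submitters' processing notes, which give the human build GRCh38 although the identifiers are mouse genes; which transcriptome was used, and whether strand was, is unknown. GENCODE M21 (GRCm38) held 52220 of the 52325 identifiers. Of the per-sample columns, 0 were unused.

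The test used limma 3.58.1 (R 4.3.3) on log2(TPM + 1), fitting genotype alone with a trended prior and Benjamini-Hochberg adjustment at 0.05. It covered the 13910 genes that reached 1 TPM in at least 4 libraries, all 9 factors included. Fold changes on this scale understate those of low genes, and TPM is compositional. Single genes were also compared over all 70 labelings (exact permutation test, two-sided, smallest p 0.0286), and pairs of factors over all 40320 orders of the libraries. The limma fit was tested on simulated data with independent noise, unlike these libraries, where null replicate 3 stood apart.

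The 9 genes, the lists and the rule for named genes were chosen with earlier results of these data known. Named were the 9, the 3 genes with the smallest p and the 2 most abundant of each list described, not all of them with every value, and the 10 genes most like the factors' mean. Cell type markers were summed by list. The alternatives tried were a pseudocount of 0.1, scaling by median of ratios, other filters, protein-coding genes only, array quality weights, a replicate block, a sex-linked covariate and leaving out each library. Motifs and seed matches were found by exact search with Python 3.11.15.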

Additional observations from a re-analysis of the deposited data

Results flagged for a closer look

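In 5 cases 1 library of a group of 4 lay farther from the other 3 than Dixon's 95% critical value allows, among 88 groups checked; chance alone flags about 1 group in 20. Klf2 was at 766 TPM in WT replicate 4 and between 409 and 450 TPM in the other WT libraries. Jun in the same library was at 1608 TPM, with the others between 1029 and 1059 TPM, and Fos was at 1855 TPM, with the others between 1262 and 1341 TPM. Ier3 was at 1077 TPM in WT replicate 2, where the other WT libraries lay between 765 and 812 TPM. Nr4a3 was at 21.5 TPM in null replicate 3, with the other null libraries between 32.5 and 34.4 TPM.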

How the results depend on the processing

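None of the 9 factors passed limma's adjusted test under any alternative run, with smallest adjusted p-values from 0.856 to 0.999. Genes called numbered 3 in the chosen analysis, 5 with a pseudocount of 0.1, 0 each with no filter, a mean TPM of at least 1, protein-coding genes only, the replicate block and the sex-linked covariate (1254, 575, 541, 632 and 441 at an unadjusted p under 0.05), and 2 to 7 with 1 library left out. The unadjusted call of Klf2 was lost in most settings. The factors' median log2 fold change lay between -0.36 and -0.14 with 1 library left out. Of 144 fold changes of the 9 under alternatives, 137 kept their direction. Other filters on low values and the replicate block cannot change a fold change, so part of the 137 was fixed in advance. Directions turned with array quality weights for Nr4a1 (0.0672), Nr4a2 (0.17), Nr4a3 (0.0649), Klf4 (0.0072), Ctbp1 (0.0322), Ncoa3 (0.0329) and Rxra (0.0159). They turned without null replicate 3 for Nr4a2, Nr4a3, Ctbp1, Ncoa3 and Wwp1, where leaving out 1 library gave ranges of -0.3759 to 0.2171, -0.1162 to 0.1021, -0.1696 to 0.044, -0.6039 to 0.0013 and -0.2945 to 0.0117. Nr4a3 was at 0.0005 without WT replicate 3. The cause was not tested. Pairs of factors passing numbered 13, 0 without the 2 farthest libraries and 3 without null replicate 3, an alternative added after seeing the data; fewer libraries also raise the smallest p. The ratio of Klf4 to Klf2 had an exact permutation p of 0.0857 without WT replicate 4 and 0.0571 without null replicate 2, with groups that still did not overlap. That of Klf6 to Klf4 had 0.0286 without null replicate 4 (-0.73). With the replicate block, an exact sign-flip test of Klf4 to Klf2 gave 0.125 (difference 0.46). This is the smallest p that test allows, so it cannot show a loss. Same-numbered WT and null libraries correlated at -0.039, 0.114, -0.047 and 0.108, so the numbers were not read as pairs. TPM keeps no depth, so what depth limits cannot be stated.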
